A study of Mus musculus with 2 samples.

Results

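The complement genes examined here are 33 named components, regulators and receptors of the complement system, taken from a fixed list of gene symbols and read from liver arrays of mice on 2 diets. Members were found as probe sets annotated with exactly 1 gene symbol on that list. Of the 33 genes, 30 had such a probe set, with 54 probe sets in all. C3, C4b and Cfd had none and were not analysed here. The calorie-restricted (CR) group was male wild-type C57BL/6J mice, an inbred laboratory strain, housed singly and started on the diet at 8 weeks of age. Their food was cut by 20% in week 1 and by 40% in the 11 weeks after it. The ad libitum (AL) group was mice of the same sex, strain, genotype and housing that ate freely for the same 12 weeks. The labels give both groups an age of 5 months. Total liver RNA of 3 mice per group was pooled in equal amounts, and each pool was hybridised to 1 Affymetrix array of 45101 probe sets.

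With 1 array of 1 pool per diet, no spread between mice was measured, no test was possible and no p-value is given. Every difference is the log2 intensity in the CR pool minus that in the AL pool and describes these pools. Precision is limited by this number of arrays. A gene was represented by its brightest probe set and counted as measured if its higher value reached an intensity of 7.38, the median of all values. Of the 30 genes with a probe set, 28 were measured, out of 12644 measured among 18193 genes in all. None of the 28 passed that limit in 1 pool only. Cd46 and C5ar1 lay under it in both pools. Among genes on the lists set beside the members below, Timd4, Lcn2 and Col1a1 passed the limit in the AL pool only. Fcnb and Krt7 passed it in the CR pool only. For such a gene the limit itself fixes the sign of the difference. A 2-fold difference (1 on the log2 scale) was used as a rule of size.

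Complement is a set of plasma proteins, mostly made by hepatocytes, that marks microbes and damaged cells for removal. The classical route is started by C1q on antibody and the lectin route by collectins and ficolins on sugars. The alternative route is started by slow turnover of C3, and all of these routes join at the cleavage of C3. Cleavage of C5 then starts the terminal route, in which C6, C7, C8 and C9 assemble into a pore, the membrane attack complex. Regulators in plasma and on cell membranes hold each step in check, and receptors on leukocytes read the small fragments released.

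In the CR pool, 4 of the 6 terminal genes were at least 2-fold lower, against 2.79% of all measured genes. On their brightest probe sets, the measured genes of the initiating routes all lay within 2-fold. So did the terminal genes Hc at -0.84 and C8g at -0.89, beside Mbl1 at -0.93 and Cfb at -0.79 in the initiating routes. Dimmer probe sets of 2 initiating genes passed 2-fold downward, C1qb at -1.25 and Masp2 at -1.09, while the terminal genes had 1 probe set each. Of the 28 measured members, 5 were at least 2-fold lower in CR, against 2.79% of all measured genes, and no member was at least 2-fold higher, against 1.80%. The 5 were the terminal genes C6, C8a, C8b and C9 and the regulator gene C4bp. In all, 21 of the 28 lay below 0, against 52.1% of all measured genes. The median difference was -0.38 over the measured members, -0.33 over the 30 with a probe set, and -0.02 over all measured genes. Outside the terminal group, 1 of 22 measured members passed 2-fold, downward, with a median of -0.23. In bulk tissue, fewer cells of a type and less RNA per cell cannot be told apart.

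**Figure D1:**
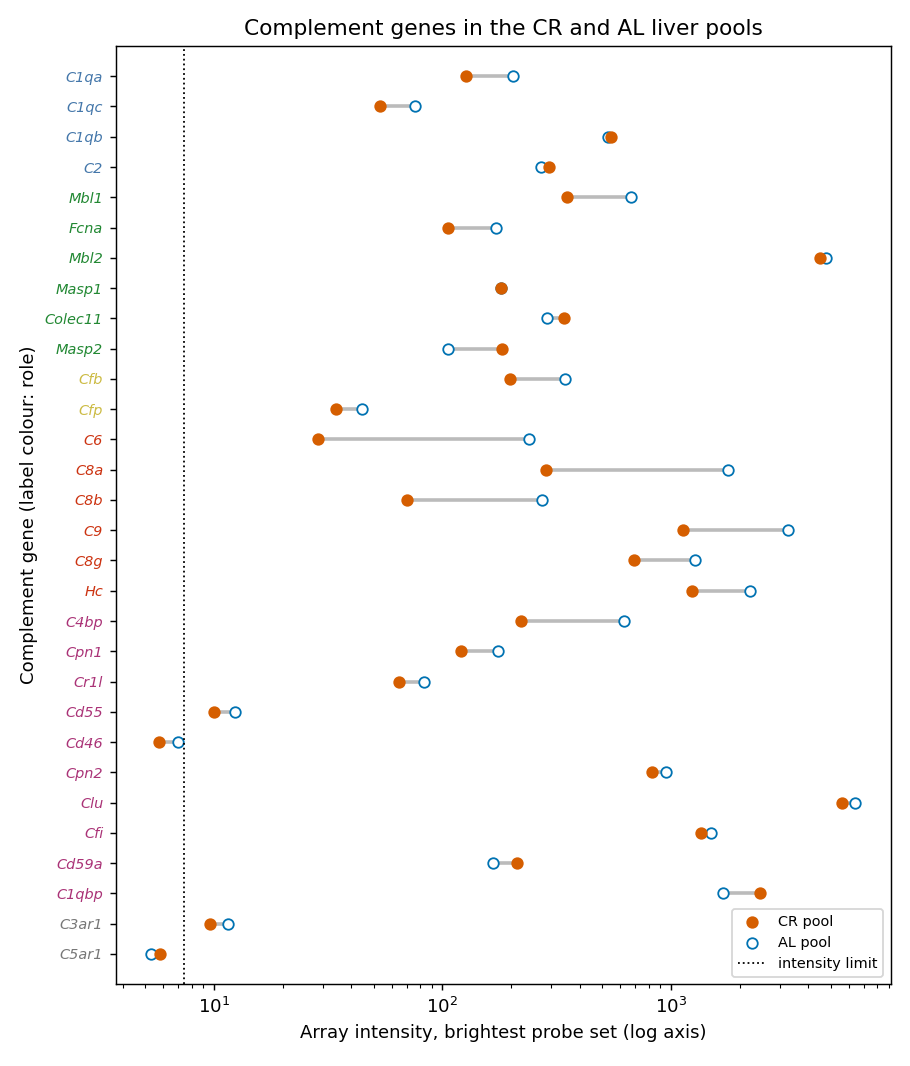
Array intensity of the brightest probe set of 30 complement genes in the CR pool (filled) and the AL pool (open), on a log axis, with gene labels coloured by role. The filled points of C6, C8a, C8b, C9 and C4bp lie farthest to the left of their open points, while Mbl2, Masp1, Clu, Cfi and Cpn2 nearly coincide. Intensities of different genes come from different probes and are not compared with each other.

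The terminal route was lower in CR at each of its 6 measured genes, with a median of -1.74 and a range from -3.06 to -0.84. C6, which binds activated C5 and opens the assembly, had an intensity of 28.6 in the CR pool, against 239 in the AL pool. That is a log2 difference of -3.06, or 8.35-fold lower, and it was the 14th lowest of 12644 measured genes. C8 is built of an alpha, a beta and a gamma chain, each from its own gene, and the 3 genes did not stand at the same difference. C8a, the alpha chain that first enters the membrane, had 284 in CR and 1776 in AL, 6.25-fold lower at -2.64. C8b, the beta chain that docks on the growing complex, had 70.1 in CR and 274 in AL, a difference of -1.97. C8g, the small lipocalin-type gamma chain, had 688 in CR and 1275 in AL, a difference of -0.89 that stayed within 2-fold. The chains with a pore-forming domain thus had larger differences than the gamma chain, which lacks it, with no replicate to set these values against.

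C9, the subunit that polymerises into the ring of the pore, had 1129.9 in CR and 3246 in AL, 2.87-fold lower at -1.52. Hc, the mouse gene of C5, whose cleavage precedes the whole terminal route, had 1244 in CR and 2229 in AL, a difference of -0.84. C8a, C8b and C9 ranked 23rd, 47th and 91st from the lowest among all measured genes. Hc and C8g also lay among the lowest 5%, at 4.38% and 3.87% of the ordered differences. This was not particular to the terminal route. Mbl1 of the lectin route and Cfb of the alternative route lay there too, at 3.42% and 4.97%, and so did the regulator gene C4bp. In all, 9 of the 28 measured members were among the lowest 5%. Each of the 6 terminal genes rested on 1 measured probe set, so no second probe set bears on their values.

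**Figure D2:**
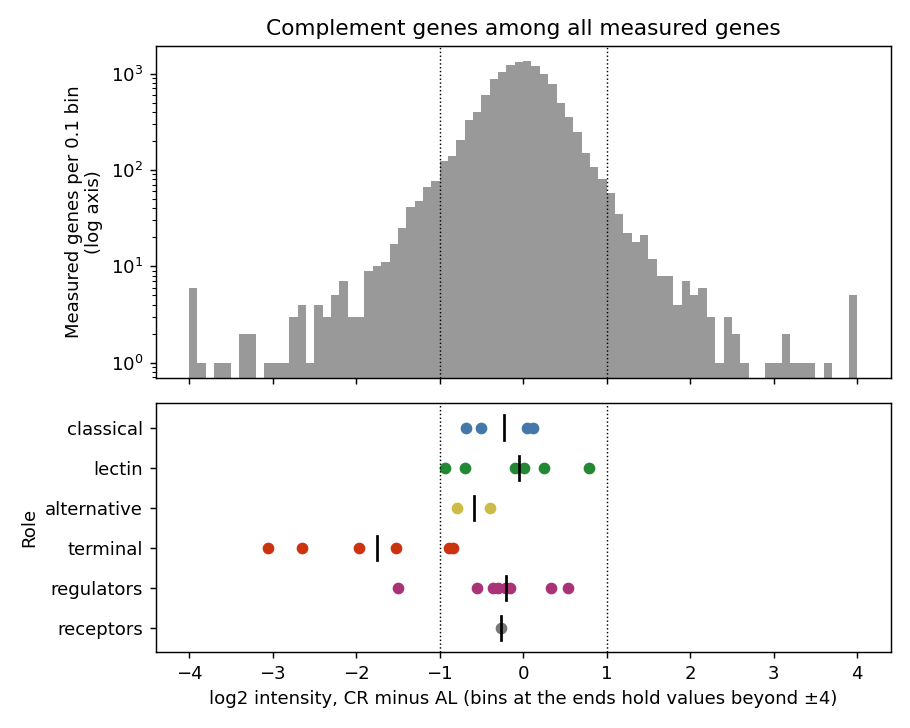
Upper panel, number of measured genes per 0.1 bin of the log2 difference CR minus AL for 12644 genes, on a log axis. Lower panel, the measured complement genes by role on the same axis, with the median of each role as a black line and dotted lines at 2-fold. The terminal genes lie from -3.06 to -0.84, in the lower tail, and the other roles have medians between -0.59 and -0.04.

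The promoters of the terminal genes of largest difference, of Hc and of C4bp are shown because these are the members farthest to the lower side, together with the gene that feeds the terminal route. The windows run from 250 bases before to 50 bases after the annotated start, 5′ to 3′ on the gene's strand, from RefSeq on GRCm38.p6. Capitals mark matches to 1 of 4 motifs searched on both strands. The C6 window is chr15:4726960-4727259, plus strand. The C8a window is chr4:104876349-104876648, minus strand. The C8b window is chr4:104766067-104766366, plus strand. The C9 window is chr15:6445096-6445395, plus strand. The Hc window is chr2:35061363-35061662, minus strand. The C4bp window is chr1:130661569-130661868, minus strand.
C6: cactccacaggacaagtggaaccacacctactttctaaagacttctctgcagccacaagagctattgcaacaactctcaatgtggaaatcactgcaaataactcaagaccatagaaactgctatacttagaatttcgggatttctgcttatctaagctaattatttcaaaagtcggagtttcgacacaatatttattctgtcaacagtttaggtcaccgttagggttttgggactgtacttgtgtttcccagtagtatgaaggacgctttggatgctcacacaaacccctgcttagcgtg
C8a: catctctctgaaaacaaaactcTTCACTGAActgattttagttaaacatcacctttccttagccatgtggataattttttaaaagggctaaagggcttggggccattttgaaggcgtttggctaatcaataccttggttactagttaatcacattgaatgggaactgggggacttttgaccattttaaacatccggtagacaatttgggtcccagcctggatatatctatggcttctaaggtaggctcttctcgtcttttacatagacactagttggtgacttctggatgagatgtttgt
C8b: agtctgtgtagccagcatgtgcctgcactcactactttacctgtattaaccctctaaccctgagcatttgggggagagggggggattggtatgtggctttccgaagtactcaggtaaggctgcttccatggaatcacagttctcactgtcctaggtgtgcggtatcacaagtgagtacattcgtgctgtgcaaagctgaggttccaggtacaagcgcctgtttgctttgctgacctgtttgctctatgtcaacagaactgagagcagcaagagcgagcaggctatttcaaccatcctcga
C9: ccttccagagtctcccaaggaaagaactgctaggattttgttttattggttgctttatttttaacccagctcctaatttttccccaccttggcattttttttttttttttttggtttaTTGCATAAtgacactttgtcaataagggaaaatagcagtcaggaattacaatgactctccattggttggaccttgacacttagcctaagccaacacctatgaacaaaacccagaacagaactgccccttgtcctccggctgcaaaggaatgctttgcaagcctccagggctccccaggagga
Hc: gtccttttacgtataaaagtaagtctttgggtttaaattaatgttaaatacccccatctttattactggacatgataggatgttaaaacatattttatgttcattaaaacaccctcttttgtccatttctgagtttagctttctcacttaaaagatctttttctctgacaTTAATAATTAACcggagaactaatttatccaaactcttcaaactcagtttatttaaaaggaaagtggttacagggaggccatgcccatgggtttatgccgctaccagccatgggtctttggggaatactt
C4bp: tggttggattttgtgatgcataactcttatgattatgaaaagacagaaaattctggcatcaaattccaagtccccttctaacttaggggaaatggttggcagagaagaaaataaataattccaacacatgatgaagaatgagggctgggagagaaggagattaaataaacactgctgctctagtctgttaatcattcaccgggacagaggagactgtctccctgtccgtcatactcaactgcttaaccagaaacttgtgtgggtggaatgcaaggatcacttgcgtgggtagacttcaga

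The motifs were those of STAT (TTCNNNGAA), C/EBP (TTGCNNAA), HNF1 (1 spelling with 1 free letter, seen in the Hc window as TTAATAATTAAC) and HNF4 (CAAAGTCCA), factor families that act in hepatocytes and, for STAT and C/EBP, in cytokine and growth hormone responses. Among 26 members with a promoter in the table, the STAT motif was in the windows of 4, C8a, Colec11, Cpn2 and Masp2, against 8.30% of 32851 windows in all. Only C8a of these 4 was among the 5 members at least 2-fold lower. The C/EBP motif was in 3, C9, Cpn2 and C3, against 10.8% of all windows. The HNF1 motif was in 1, Hc, and is found in 20 of all windows, or 0.0609%. The HNF4 motif was in none of the 26, and in 0.475% of all windows. Of the windows printed, those of C8a, C9 and Hc held 1 match each. The windows of C6, C8b and C4bp held none of the 4 motifs as spelled, which says only that these letters were not in these 300 bases.

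By position, C8a and C8b lie side by side on chromosome 4 in GRCm38.p6, with no protein-coding gene between them. C6 and C9 lie on chromosome 15 with 8 protein-coding genes between them. C8g and Hc are both on chromosome 2, but far apart in gene order. The 3 C1q genes also form a run on chromosome 4, as Cfb and C2 do on chromosome 17, and Cd46 and Cr1l on chromosome 1.

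In the classical route, the value of C1q depended on the probe set read, and no brightest probe set reached 2-fold. C1q is the antibody-sensing starter of the route, built of A, B and C chains that macrophages, including liver Kupffer cells, produce. C1qa had 127 in CR and 204 in AL, a difference of -0.68. C1qc had 53.4 in CR and 76.0 in AL, a difference of -0.51. C1qb had 3 measured probe sets, and they did not share a direction. Its 2 brighter ones, both of a type whose probes can match other transcripts (_x_at), had 549 in CR and 529.8 in AL for the first and 389 in CR and 358 in AL for the second, differences of 0.05 and 0.12. The third, annotated with a RefSeq transcript, had 30.9 in CR and 73.5 in AL, a difference of -1.25. On that probe set all 3 C1q chains were lower in CR.

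C2, the protease that joins C4 fragments into the C3-cleaving enzyme of the classical and lectin routes, showed the same split. Its 2 _x_at probe sets stood at 0.12 and 0.07, with 292 in CR and 269 in AL on the brighter. The other probe set had 59.2 in CR and 77.0 in AL, a difference of -0.38. Over the 4 measured classical genes the median was -0.23, with 2 below and 2 above 0, against -0.60 when _x_at probe sets were left out.

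**Figure D3:**
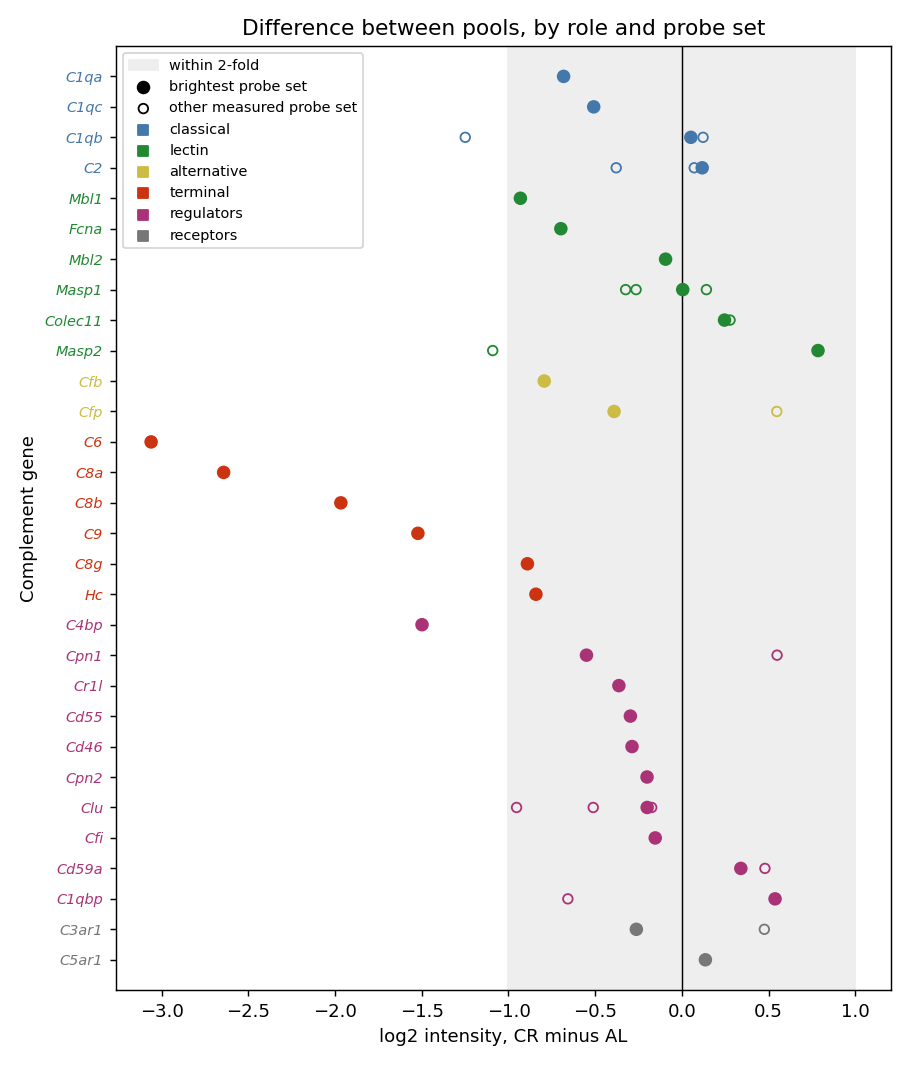
Log2 intensity difference CR minus AL of each complement gene, by role, with the brightest probe set filled and other measured probe sets open; the shaded band is within 2-fold. Cd46 and C5ar1 are drawn although they lay under the intensity limit in both pools. The terminal genes have 1 point each, while C1qb, Masp2, C1qbp, Cpn1, Cfp and C3ar1 have points well apart on either side of 0.

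In the lectin route, 2 sugar-binding starters were lower in CR by under 2-fold and others stood near 0. Mbl1, mannose-binding lectin A, had 352 in CR and 671 in AL, a difference of -0.93. Mbl2, mannose-binding lectin C, had 4473 in CR and 4775 in AL, a difference of -0.09, so the genes of these related lectins did not stand at the same difference. Fcna, ficolin A, which liver and spleen macrophages make, had 106 in CR and 172 in AL, a difference of -0.70. Colec11, a collectin that can also trigger the route, had 342 in CR and 288 in AL, at 0.25, and its other probe set stood at 0.28.

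The lectin proteases gave no shared direction. Masp1, whose gene also encodes the MASP-3 form that matures factor D, had 180.4 in CR and 179.7 in AL, a difference of 0.00, and its 4 measured probe sets ran from -0.32 to 0.14. Masp2, the protease that cleaves C4 and C2, had 2 probe sets in opposite directions. The brighter had 183 in CR and 106 in AL, a difference of 0.79, and the dimmer 26.5 in CR and 56.5 in AL, a difference of -1.09. The Masp2 gene also encodes a short form without the protease domain, and the annotation used here does not say which form each probe set reads. The median of the 6 lectin genes was -0.04, with 3 below and 3 above 0 as deposited, and Masp1 stood at 0.00 as deposited and at -0.01 after median centring.

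In the alternative route, Cfb, factor B, the protease of the C3-cleaving enzyme that this route builds, had 198 in CR and 343 in AL, a difference of -0.79. Cfp, properdin, a stabiliser of that enzyme made by leukocytes, had 34.1 in CR and 44.7 in AL on its brighter probe set, at -0.39. Its dimmer probe set had 18.8 in CR and 12.9 in AL, at 0.55. With Cfd and C3 not analysed here, the route rests on these 2 genes.

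Among the 9 measured regulators, 1 passed 2-fold, downward in CR, against 2.79% of all measured genes, and the median was -0.20. C4bp, the C4-binding protein that takes apart the C3-cleaving enzyme of the classical and lectin routes, had 220.1 in CR and 622 in AL. It was 2.83-fold lower at -1.499, on 1 probe set, and ranked 97th from the lowest of all measured genes. Cfi, factor I, the protease that destroys C3b and C4b with C4bp or factor H as cofactor, stood at -0.15, with 1354 in CR and 1506 in AL. The cofactor gene and the protease gene thus stood apart by more than 2-fold. Clu, clusterin, which binds terminal complexes in plasma, had 5584 in CR and 6415 in AL, at -0.20, and its 4 probe sets ran from -0.95 to -0.17, all below 0.

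Carboxypeptidase N trims the inflammatory fragments C3a and C5a and consists of a catalytic and a supporting subunit. Cpn1, the catalytic subunit, had 120.2 in CR and 176 in AL on its brighter probe set, at -0.55, and 33.1 in CR and 22.6 in AL on its dimmer one, at 0.55. Cpn2, the supporting subunit, had 830.3 in CR and 954 in AL, at -0.20.

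The membrane regulators were dim or lay within 2-fold. Cd59a, which blocks the joining of C9 to the pore, had 212 in CR and 167 in AL, at 0.34, with its other probe set at 0.48. Shifts by the spiked controls, which move all genes alike, put the brighter at -0.03 on cre and -0.68 on all of them. Cr1l, the rodent regulator known as Crry, had 64.8 in CR and 83.4 in AL, at -0.36. Cd55, decay-accelerating factor, had 10.03 in CR and 12.3 in AL, near the limit, at -0.30. Cd46, a cofactor that mice express mainly in testis, had 5.73 in CR and 6.998 in AL, under the limit in both. C1qbp, a C1q-binding protein that resides largely in mitochondria, had 2461 in CR and 1696 in AL on an _x_at probe set, at 0.54. Its other probe set had 66.8 in CR and 105 in AL, at -0.66, the opposite direction.

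The receptors for the fragments C3a and C5a, carried mainly by myeloid cells, were too dim in whole liver to give a direction. C3ar1 had 9.63 in CR and 11.6 in AL on its brightest probe set, at -0.26, and 11.0 in CR and 7.94 in AL on the next, at 0.48. C5ar1 had 5.84 in CR and 5.32 in AL, under the limit in both pools.

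On their brightest probe sets, other genes of the pathway outside the 33 showed 1 further 2-fold difference, in an inhibitor. Of 27 listed, 17 had a probe set with 1 symbol and 12 were measured. Of these 12, 1 passed 2-fold downward and 0 upward, against 2.79% and 1.80% of all measured genes. The median of the 12 was -0.42, with 8 below 0. Over the 17 with a probe set it was -0.15, with 9 below 0. Serping1, the C1 inhibitor that blocks the C1 and MASP proteases, had 229.8 in CR and 666 in AL, 2.90-fold lower at -1.53. C1s1, the C1 protease that cleaves C4 and C2, had 155 in CR and 294 in AL, at -0.93. Cd93, a membrane protein once taken for a C1q receptor, stood at -0.81, and Susd4, a membrane complement inhibitor, at -0.64, with its other probe set at -1.21. Vtn, the vitronectin gene, named after its value was seen, stood at -0.52 on its brighter probe set and -1.38 on the other. C7 and factor H were not analysed here.

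Probe sets of 1 gene often disagreed. Of the 11 members with 2 or more measured probe sets, 8 had both signs, a share of 72.7%, against 52.7% of 4924 genes in all. Their median SD between probe sets was 0.522 on the log2 scale, against 0.288 over all genes. The other 17 measured members, among them all 5 of at least 2-fold, had 1 measured probe set each, so no agreement could be read for them. The 3 members whose several probe sets shared a sign were Clu, below 0, and Colec11 and Cd59a, above 0.

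Scaling between arrays set the zero of every difference. The spiked hybridisation controls differed between arrays by a median of 1.02, higher in CR, and a shift by them moved the median of all measured genes to -1.04. After that shift 22 of the 28 members and 54.2% of all measured genes were 2-fold lower, and after a shift by cre alone, which moved the median of all genes to -0.40, it was 11 members and 8.15%. These shifts moved each gene by 1 constant and so leave the order of the members as it was. Differences here are therefore relative to the typical gene.

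Acute phase and coagulation proteins, other plasma proteins that liver secretes, were set beside complement. In CR, 5 of 17 measured acute phase proteins passed 2-fold downward (Saa1, Saa2, Saa3, Saa4 and Serpina3n) and 0 upward, and their median was -0.56. For coagulation factors it was 2 of 22 downward (Fgb and Fgg) and 0 upward, and the median was -0.34. These genes are named after their values were seen. The terminal complement genes had 4 of 6 and a median of -1.74, and the other complement members 1 of 22 and -0.23. Over all measured genes, 2.79% passed 2-fold downward and 1.80% upward. No test of the differences between these lists was possible with 1 array per diet.

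**Figure D4:**
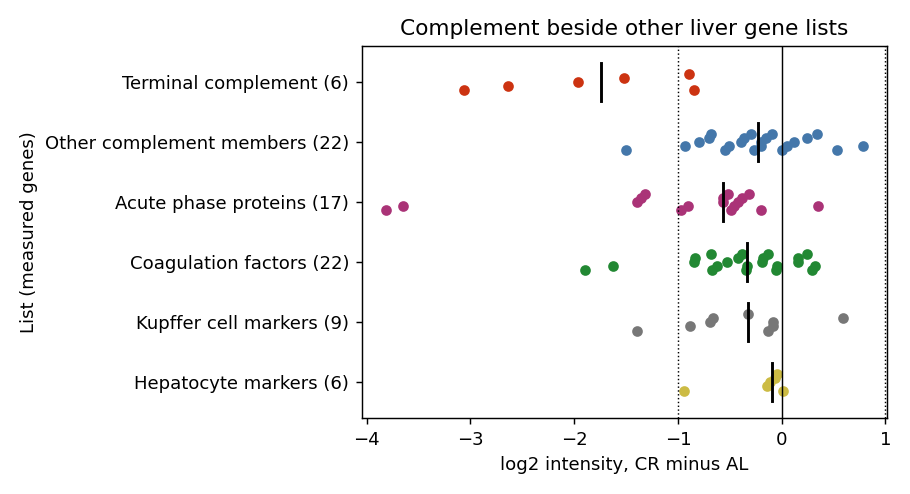
Log2 intensity difference CR minus AL of measured genes in complement, in 2 other groups of plasma proteins and in 2 marker lists, with medians as black lines and dotted lines at 2-fold. The terminal complement genes have a median of -1.74, against -0.23 in the other complement members, -0.56 in acute phase proteins and -0.34 in coagulation factors.

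Marker lists of hepatocytes and Kupffer cells, which make complement proteins, had medians of -0.09 and -0.32. Over all measured genes the median was -0.02, 52.1% lay below 0 and 2.79% passed 2-fold downward. Of 6 hepatocyte markers, 5 lay below 0 and none reached 2-fold on its brightest probe set. Their summed intensity was 55450.0 in CR and 58524 in AL, and albumin, Alb, stood at -0.11. The defining hepatocyte marker was thus strong in both pools, as the tissue label says. The sum is carried by very bright genes, among them Apoa1, the highest value on the CR array. Of genes named after their values were seen, Apob was the lowest at -0.94, with 337 in CR and 647 in AL. Its other probe set stood at 0.20, and the probe sets of Ttr ran from -1.60 to -0.07. Of 9 measured Kupffer cell and macrophage markers, 8 lay below 0, as did 9 of the 10 with a probe set, and 1 passed 2-fold downward (Lyz2, named after its value was seen, at -1.39), with a summed intensity of 1851 in CR and 2105 in AL. Clec4f, which defines Kupffer cells, had 121 in CR and 196 in AL, at -0.69. The list ran from -1.39 to 0.59, the value of Cd163, with Marco, Csf1r and Cd5l at -0.13, -0.09 and -0.08. Its other measured markers Adgre1, Aif1 and Timd4 stood at -0.66, -0.32 and -0.88. Timd4 had 5.63 in CR and 10.4 in AL, so it passed the limit in AL only and its sign was fixed by that. Over the 10 with a probe set the median was -0.49. Of the members that macrophages make, C1qa stood at -0.68, C1qb at 0.05 on its brightest probe set, C1qc at -0.51 and Fcna at -0.70. The part of Kupffer cell content in those values was not tested. Of 4 measured neutrophil markers, all lay below 0, with a summed intensity of 45.7 in CR and 120.4 in AL, and 2 passed 2-fold downward, S100a8 at -2.29 and S100a9, named after its value was seen, at -1.75. The other marker lists had medians of 0.15 over 4 measured endothelial genes, -0.30 over 5 stellate cell genes, 0.03 over 3 adipocyte genes, -0.28 over 2 lymphocyte genes and 0.29 over 3 bile duct genes, and none of their members reached 2-fold. Over all genes with a probe set, the medians were 0.09 endothelial, -0.30 stellate, -0.03 adipocyte, -0.09 lymphocyte and 0.03 bile duct. Col1a1 of the stellate list and Krt7 of the bile duct list passed the intensity limit in 1 pool only. Of the measured genes on these lists, 1 endothelial, 4 stellate, 1 adipocyte, 2 lymphocyte and 1 bile duct gene lay below 0. Their defining markers Stab2 of endothelium and Lrat of stellate cells stood at 0.09 and -0.76, and Lrat was the lowest of its list. Adipoq, Cd79a and Krt19, which define adipocytes, B cells and bile duct cells, lay under the intensity limit in both pools.

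As signs of RNA quality, the ratio of 3′ to 5′ control signal was 89.7 in CR and 83.5 in AL for beta-actin, and 53.2 in CR and 46.9 in AL for Gapdh. Signal on both arrays was thus strongly weighted to the 3′ end, and the ratio was higher in CR for both transcripts. All 6 control probe sets of these transcripts were also lower in CR, with median differences of -0.83 for beta-actin and -0.85 for Gapdh and a lowest of -1.61, beside -0.84 for Hc and -0.89 for C8g. The part of RNA quality or labelling in the complement values was not tested.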

How the data were processed

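RNA from the livers of 3 mice was combined for each diet, and 6 ug went into biotin-labelled cRNA, per the labels' protocols. The deposited values are array intensity, which per the submitters' processing notes came from RMA, run by the authors, and medians of 7.42 in CR and 7.35 in AL with maxima of 14045 in CR and 18092 in AL show a linear scale. Which RMA version and rescaling were used is not given in the sources used here. RMA normalizes arrays to each other, and the table has no detection calls.

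Intensities were turned into log2 values, and AL was subtracted from CR. Gene names came from the platform annotation of GEO; 34945 probe sets had 1 symbol, 932 had several and 9160 had none, besides 64 controls, and a probe set with several symbols named no gene. The brightest probe set stood for a gene. Called meant a difference of at least 2-fold. With 1 array per group no test was run, and depth does not apply to arrays. Members and lists were chosen with earlier results of these data known. Every member is named, and of the other complement genes and the factor list the 4 largest measured differences and all of at least 2-fold; the acute phase, coagulation and marker lists are given by counts, medians or sums, with the defining markers. Alternatives were the mean of probe sets, probe set types, other intensity limits, other scalings and a 1.5-fold threshold. Leaving out _x_at probe sets alone was chosen after seeing the data. The steps were tested on simulated data. Tools were Python 3.11.15 with pandas 2.3.3, numpy 2.4.6, matplotlib 3.10.9 and, for loess with a span of 0.4, statsmodels 0.14.6.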

Additional observations from a re-analysis of the deposited data

How the results depend on the processing

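No paired analysis was possible because each diet had 1 pooled array. The count of 5 members at least 2-fold lower, and of 4 in the terminal group, stayed within 1.5 times under probe set averaging, probe set types, intensity limits, median centring and loess. Each of these 5 has 1 probe set and an AL intensity far above every limit used. Averaging and intensity limits thus could not change their own calls and do not test them. Median centring moved all genes by 1 small constant. It put C4bp, the nearest of the 5 to 2-fold, at -1.51 and Mbl1, the next member, at -0.95, so it does not test the calls either. At the 75th percentile limit of 21.0 the share of all measured genes at least 2-fold lower was 4.25%. Shifting by all hybridisation controls gave 22 members lower, with 6 terminal, 2 classical, 4 lectin, 2 alternative, 7 regulator and 1 receptor gene. Medians were -1.39 over members, -1.24 classical, -1.06 lectin, -1.61 alternative, -2.76 terminal, -1.22 regulators and -1.28 receptors. Of all measured genes 54.2% then passed 2-fold lower. Masp1 stood at -1.01 there. Shifting by cre alone gave 11 lower, with 6 terminal, 1 classical, 2 lectin, 1 alternative and 1 regulator gene, against 8.15% of all genes. Medians were -0.75 over members, -0.60 classical, -0.42 lectin, -0.97 alternative, -2.12 terminal, -0.57 regulators and -0.64 receptors. Hc and C8g thus passed 2-fold under both shifts. A 1.5-fold threshold gave 11 lower and 1 higher, made up of 6 terminal, 1 classical, 2 lectin, 1 alternative and 1 regulator gene lower and 1 lectin gene higher, against 9.49% of all genes lower and 6.76% higher. Without _x_at, _s_at and _a_at probe sets the classical median was -0.60 with 1 gene lower, C1qb at -1.25. The terminal median was then -2.08 over 4 genes, 3 of them lower, since C8b and C8g have no other probe set. The 5 members lower under that setting thus held C1qb in place of C8b. Without _x_at alone the classical group gave the same -0.60, 1 gene and -1.25 for C1qb. Averaging all probe sets of a gene turned the receptor value, C3ar1 alone, to 0.10, and put Masp2 at -0.15, Cfp at 0.08, C1qbp at -0.06, C1qb at -0.36, Cr1l at -0.05 and Cpn1 at 0.00. Leaving out a replicate was not possible. Shifts of a value by under 0.288, the median SD between probe sets of a gene, were taken as no change. That rule was also applied to medians over genes, whose spread it does not measure. By it the median over members, -0.38 as deposited, counted as unchanged at -0.60 without _x_at probe sets, with 6 of 28 lower. It also did at -0.51 without _x_at, _s_at and _a_at probe sets, with 5 of 25 lower. Of all measured genes 2.95% and 2.92% were then 2-fold lower. The member median thus depends on probe set choice. Both ways of leaving out probe set types also put C1qbp at -0.66 and C2 at -0.38, and leaving out _x_at alone put Clu at -0.95. Shifts of single members under the control scalings follow from the constants and are not listed one by one.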

Other observations

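Genes of factors and receptors known to act on hepatocyte complement genes lay within 2-fold. Of 14 listed, 12 were measured, with a median of -0.32 and 8 below 0, against 52.1% of all measured genes. The 4 of largest difference lay in both directions. Il6ra, the receptor chain for interleukin 6, had 110.3 in CR and 56.5 in AL, at 0.97, with its other probe set at 0.08. Cebpb, an acute phase transcription factor gene, had 1104 in CR and 597 in AL, at 0.89, with its other probe set at -0.38. Ghr, the growth hormone receptor, had 943 in CR and 1731 in AL, at -0.88, and its 3 measured probe sets ran from -0.95 to -0.28. Stat5a, a transcription factor that growth hormone activates, had 13.2 in CR and 20.3 in AL, at -0.62.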
